A study of Drosophila melanogaster with 66 samples.

Results

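Of 10276 regions bound by CLAMP on the 5 large chromosome arms of male Drosophila melanogaster embryos aged 2-4 h, 1714 held more than 1 summit and were also found in females of the same age. They are called several-summit regions here. A summit is a position where the ChIP signal of a region peaks, and the deposited list gives a separate row to each summit of a region. A region was taken when its chromosome, start and end stood in at least 2 rows of the male list and when at least 1 bp of it lay under a region of the female list. The number of summits and the presence in females therefore chose the regions, and neither is a result.

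CLAMP has zinc fingers that recognise GA-rich DNA, and it binds on every chromosome. In male flies it brings the MSL complex to the X chromosome, where the complex acetylates histone H4 at lysine 16 (H4K16ac) and raises transcription of X-linked genes. MSL3 is a subunit of that complex, and the roX RNAs are its noncoding RNA components. GA-rich stretches often stand in clusters at promoters, and proteins that bind them are known for opening chromatin in the early embryo.

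The study mapped CLAMP and H4K16ac in both sexes, and MSL3 in males, from nuclear cycle 11 (NC11) to NC14 and at 2-4 h. Sexed embryos came from meiotic drive, in which every father carried SPSD over SD72. Fathers of the female embryos had Dp(2:y) CB25-4, marked with y+ and with Rsp[s]B[s], as their Y, beside a + X. Fathers of the male embryos had a plain Y, beside a 19-3 X that was yw and carried Rsp[s]-B[s]. All mothers were yw; attP2{PCNA-EGFP}, for embryos of both sexes. Each NC11 to NC14 sample pooled 200 hand-staged embryos, and the 2-4 h samples are given an age range without a cycle, while the names of their lists say 3 h. The embryo is a mixture of tissues, and fewer bound cells and weaker binding per cell cannot be told apart.

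The 25 lists analysed, 1 for each sex, stage and target, held 124393 regions in all. Read depth is not given in them and is unknown here. With 1 list per group no difference below has a replicate check, so shares are given with exact (Clopper-Pearson) 95% intervals that cover counting error only, and no p-value is given. The CLAMP lists of NC11 to NC14 ranged from 133 regions (male NC11) to 8393 (male NC14), so the share of regions met again in an earlier list depends on how much was called in it. The 2-4 h lists were close in number of regions, with 10276 male and 10265 female regions on the arms. Their regions differed in width, with a median over the whole list of 470 bp in males and 569 bp in females. The part of this difference in the summit numbers compared below was not tested. The comparison set is the 7759 male regions with 1 summit that were found in females. A further 788 single-summit regions and 15 several-summit regions were not found in females.

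Most several-summit regions held a pair of summits. There were 1430 regions with 2 summits (83.4%), 230 with 3, 44 with 4, 9 with 5 and 1 with 6, which made 3777 summits. Regions with several summits were 16.8% of all male regions, 18.1% of those found in females (1714 of 9473, interval 17.3 to 18.9%) and 1.87% of those not found there (15 of 803, interval 1.05 to 3.06%). On either side of the threshold, regions with exactly 2 summits had a median width of 938.5 bp and single-summit regions had one of 445 bp. The 15 regions missing from females were weak and narrow, with a median highest fold of 2.29 and a median width of 612 bp.

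Regions with more summits were wider, with a near constant density of summits. Median width was 938.5 bp with 2 summits, 1397 bp with 3, 1855 bp with 4 and 2154 bp with 5, which is 2.13, 2.15, 2.16 and 2.32 summits per kb. The 1 region with 6 summits had 1.66 per kb. The distance from the outermost summit to the end of the region had a median of 216.5 bp in several-summit regions and of 216 bp in single-summit regions. Their greater width (median 985 bp, quartiles 818 to 1231 bp) thus lay between the summits.

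Neighbouring summits stood a median of 471 bp apart (quartiles 368.5 to 586 bp, 2063 pairs). Of these distances 71.8% lay from 300 to 650 bp, 19 were under 150 bp and 98 were over 800 bp. The fullest 50 bp interval was 450 to 500 bp, with 275 pairs. Spacing hardly moved with the number of summits, since the median was 472 bp in regions with 2 summits, 469 bp with 3, 487 bp with 4 and 436 bp with 5. It was also alike on every arm, from 460 bp on 3L to 488 bp on 2L, with 468 bp on the X. Within a region of 3 or more summits the largest distance was a median of 1.49 times the smallest, and in 143 of 284 regions it was at most 1.5 times. Of all neighbouring male summits 450 to 600 bp apart, 93.9% (683 of 727) shared a region, and of those 750 to 900 bp apart 28.8% (111 of 386) did, so the upper end of the spacing is also the distance at which the deposited list separates regions.

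**Figure D1:**
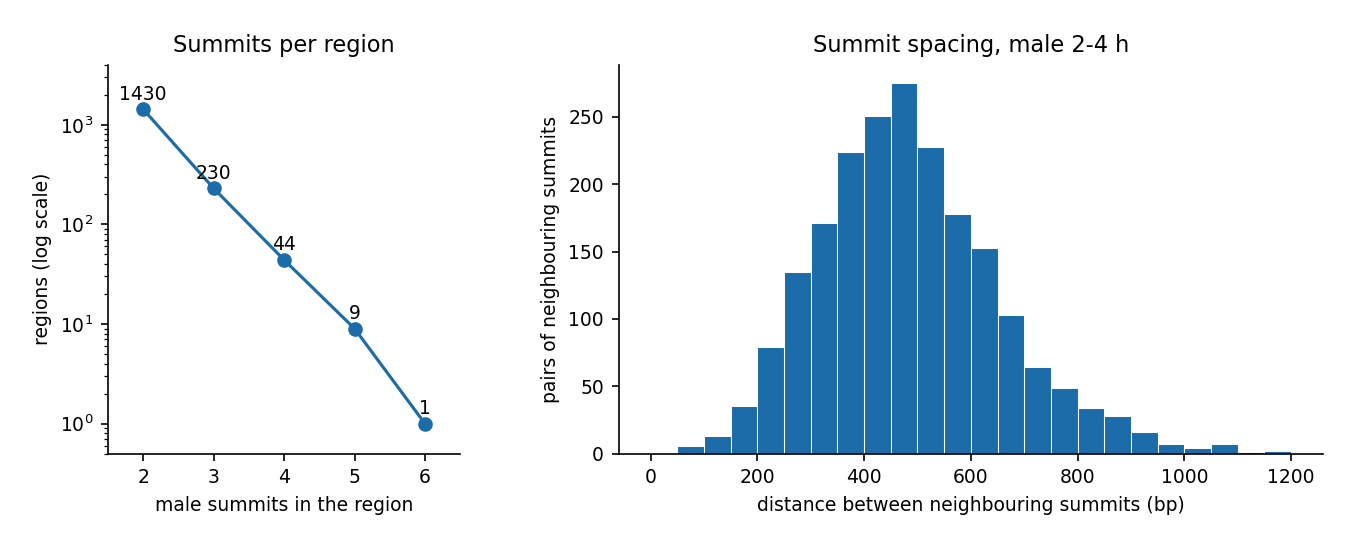
Left, number of several-summit regions (log axis) by the number of male summits they hold, from 1430 with 2 summits to 1 with 6. Right, number of neighbouring summit pairs by their distance in bp, in 50 bp intervals, with the fullest interval at 450 to 500 bp.

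The region with most summits lay at slam, a gene expressed at the start of zygotic transcription whose product is needed for membrane growth during cellularisation. It spanned 3605 bp (arm 2L, 6373382 to 6376986, dm6) inside the gene's own span of 6372388 to 6377284. Its 6 male summits had folds over background of 4.08, 1.68, 1.52, 1.55, 1.97 and 2.00 in order along the arm, and its female region had 2 summits with folds of 4.89 and 1.99. The strongest summits of the sexes stood 285 and 308 bp from the male start. The other 5 male summits had folds of at most 2.00 and no female summit within 50 bp.

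The 9 regions with 5 summits lay at gpp, CG6051, RasGAP1, Rh5, spi, RhoGEF2, Bicra, CG3764 and CG11357. At RhoGEF2, which encodes an exchange factor used in gastrulation, the male folds were 2.96, 2.63, 2.91, 2.49 and 11.1 and the female folds were 2.82, 2.80 and 9.71. The 1 strong summit was shared by the sexes, and the male summits beside it were weak. At spi, the ligand of the EGF receptor, the male folds were 1.68, 4.00, 1.52, 1.58 and 1.54 and the female folds 3.66, 1.73, 1.75 and 2.40. At gpp, the histone H3 lysine 79 methyltransferase, the male folds were 3.08, 4.16, 1.57, 5.94 and 2.08 and the female folds 3.09 and 4.98. The 3 male summits at gpp without a partner were the 3 weakest. RasGAP1, a Ras inhibitor, had male folds of 5.28, 9.80, 1.94, 1.97 and 2.01 and female folds of 5.23, 7.78 and 1.99, and its 2 groups of summits stood 1098 bp apart in males. Rh5, an opsin gene, was the nearest gene to its region at 329 bp, and the other 8 regions overlapped the gene they are named after.

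**Figure D2:**
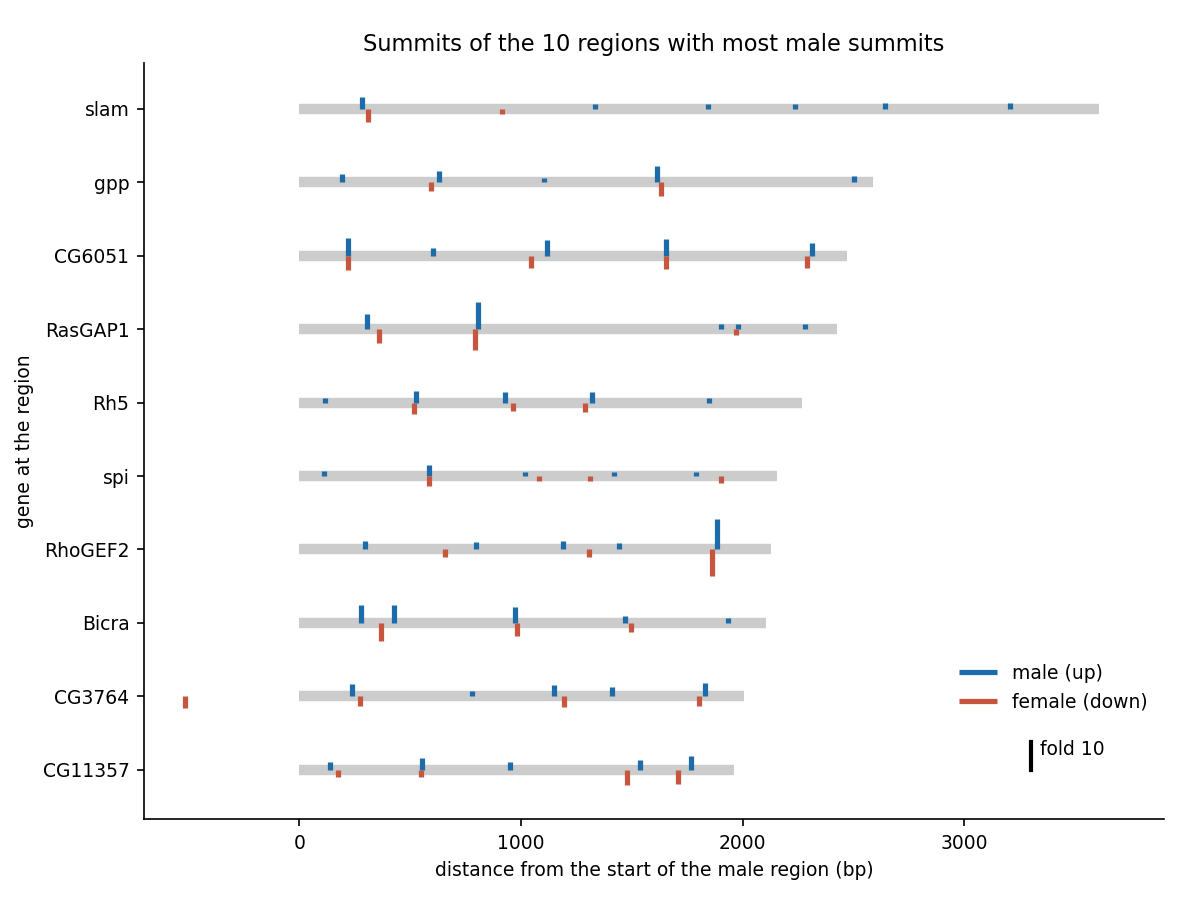
Each grey bar is 1 of the 10 male regions with most summits, labelled by its gene and drawn from its start in bp. Ticks up are male summits and ticks down female summits, with length proportional to fold. A female tick to the left of a bar lies outside the male region, as at CG3764. At slam 6 male summits face 2 female ones, and in the other 9 regions 2 to 4 female summits face 5 male ones.

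By their highest summit, several-summit regions were stronger than single-summit regions at the median but rare among the very strongest. Fold here is the authors' enrichment of a summit over background, as deposited, and a region's highest fold is that of its strongest summit. It had a median of 5.71 (quartiles 4.09 to 7.70) against 4.73 in single-summit regions (quartiles 3.40 to 7.03), but the largest value was 22.5 against 40.5. Taking the highest of several summits favours the several-summit set. Its median was 4.43 by the mean over the summits of a region and 3.02 by the lowest summit. Both were below the 4.73 of single-summit regions, so the order depends on the summit taken. When the regions found in both sexes were split by highest fold into 4 sets of like size, the several-summit share was 12.0% and 15.96% in the weaker sets, 22.8% in the next and 21.6% in the strongest. Among the strongest 1000 male regions 172 were several-summit regions, among the strongest 500 there were 61 and among the strongest 100 there were 7 (7%, interval 2.86 to 13.9%). The fold is from the same list as the rule, so these values describe the set and are not a test of it.

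The summits of a region were often unequal. The lowest summit had a median fold of 3.02, and the highest fold was a median of 1.62 times the lowest. In 604 regions (35.2%, interval 33.0 to 37.6%) it was at least 2 times the lowest, and in 392 (22.9%) at most 1.2 times. The ratio had a median of 1.52 with 2 summits and of 2.19 with 3 or more. Position along the region did not favour a side, because the stronger of 2 summits was the one at the lower coordinate in 710 of 1430 regions (49.7%, interval 47.0 to 52.3%). Of the regions with 3 summits, the middle one was strongest in 76 of 230 (33.0%, interval 27.0 to 39.5%). The lowest summit was also near the calling limit in part of the set, since its −log10 q was under 5 in 263 regions.

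**Figure D3:**
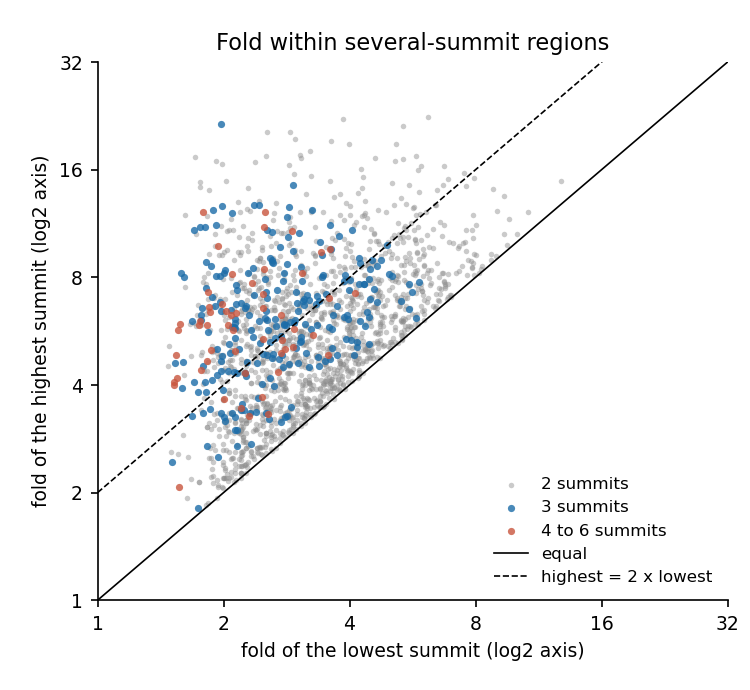
Fold of the highest summit against fold of the lowest summit of each of the 1714 male regions, both on log2 axes, with points coloured by summit number. The solid line marks equal folds and the dashed line a 2-fold ratio, which 604 regions reach or exceed.

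The strongest several-summit regions held 1 high summit and lower ones. On the X the 5 highest were at Nost (22.5), wcy (21.5), Rilpl (21.2, with the gene 1617 bp away), CG16700 (19.3) and OdsH, a homeobox gene (16.1, with the gene 537 bp away). At Nost (X, 9042193 to 9042941) the male folds were 6.15 and 22.5, 249 bp apart, and the female region had 1 summit with a fold of 17.8 close to the stronger male one. At wcy the male folds were 3.18, 1.97 and 21.5 and the female folds 3.38 and 17.0. On chromosome 2 the highest folds were at CG31729 (22.2), mts, the catalytic subunit of protein phosphatase 2A (19.5), CG5953 (17.6), the inositol phosphate kinase gene Ip6k (17.5) and the chromatin protein gene Dek (17.4). On chromosome 3 they were at su(Hw), an insulator zinc-finger protein (20.4), lncRNA:CR31386 (20.4), CG34355 (18.9), nsl1, a subunit of the NSL acetyltransferase complex (18.9), and rno (18.1). At su(Hw) the male folds were 20.4 and 2.54 and the female folds 16.7 and 2.29. In all 15 of these regions the highest female fold was below the highest male fold, from 14.1 to 18.5 in females. They were chosen for a high male fold, which favours this order. Female folds were also lower in general, with a median highest fold of 5.08 in several-summit regions and 4.25 in single-summit ones.

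The longest distances between summits were 1171 bp at Maf1, a repressor of RNA polymerase III, 1153 bp at Adf1, a transcription factor, 1136 bp at lncRNA:CR45293, 1098 bp at RasGAP1 and 1096 bp at Amun. At Adf1 a pair of summits with folds of 4.29 and 11.9 stood in a region of 1946 bp that also touched Dpit47, and females had 2 summits there with a highest fold of 10.7. The female region at lncRNA:CR45293 had 4 summits where the male one had 2, with female folds of 4.98, 2.57, 2.41 and 2.52.

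Several-summit regions were spread over the arms as other CLAMP regions were. They numbered 292 on 2L, 344 on 2R, 343 on 3L, 401 on 3R and 334 on the X. As a share of the regions found in both sexes this was 17.8%, 18.8%, 17.6%, 18.2% and 18.1%, and all 5 intervals overlapped. The X held 19.5% of the several-summit regions (interval 17.6 to 21.4%) and 19.5% of the single-summit regions. Per Mb of arm, measured to the end of its last annotated gene, there were 12.5 on 2L, 13.6 on 2R, 12.2 on 3L, 12.5 on 3R and 14.2 on the X. Among regions with 3 summits 55 of 230 were on the X (23.9%, interval 18.6 to 30.0%), and among those with 4 or more 8 of 54 (14.8%, interval 6.62 to 27.1%). The median highest fold was 6.02 on the X and from 5.42 to 5.70 on the other arms. The end of the X beyond 22 Mb held 13 of the 334.

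Most several-summit regions stood far apart, with a median of 38078 bp from one to the next. The densest 100 kb window, on 3R from 5600001 to 5700000, held 8 of them among 16 CLAMP regions, at genes that include kra, Rga and RpL13A. A window on 3L from 1500001 to 1600000 held 7 of 11, and 2 windows on 2R and 3R held 7 of 21 and 7 of 16.

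Females shared the several-summit form at a majority of the regions. The number of female summits was not used by the rule and comes from another library. In the female list 1111 of the 1714 regions (64.8%, interval 62.5 to 67.1%) were covered by regions with several summits in all, against 793 of 7759 single-summit regions (10.2%, interval 9.55 to 10.9%) and 18.5% of all male regions on the arms. Single-summit regions weighted to the same 4 sets by fold gave 9.55%. Counting only female summits that fell inside the male region, the shares were 61.3% and 0.825%, so the female summits beside single-summit regions lay almost all outside the male borders. Single-summit regions were narrower (median 445 bp against 985 bp) and had less room for a further summit. The part of width in these shares was not tested. On the X 70.1% of the several-summit regions had several female summits (234 of 334, interval 64.8 to 74.9%) and on the autosome arms 63.6% did (interval 60.9 to 66.1%). Single-summit regions differed in the same way, with 13.5% on the X and 9.42% on the autosome arms.

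The summit numbers themselves matched in 851 regions (49.6%). Females had fewer summits in 762 regions (44.5%) and more in 101 (5.89%), and the means were 2.20 in males and 1.80 in females. These female numbers include summits outside the male borders. A female region can also count for 2 male ones, as at nej and mam. The regions were chosen on a high male number, which by itself puts the male number above the female one. The share with at least 2 female summits rose with the male number, from 59.4% of regions with 2 summits to 90.4% with 3 (208 of 230). It was 43 of 44 with 4 and all 10 with 5 or 6. Equal numbers in the sexes went the other way, with 764 of 1430 regions with 2 summits, 78 of 230 with 3 and 9 of 44 with 4. Regions with more summits are also wider (medians of 938.5, 1397 and 1855 bp with 2, 3 and 4), and the part of width was not tested. The 603 regions with 1 female summit were narrower (median 844 bp), and had a shorter largest gap between neighbouring summits (median 381 bp) and a lower highest fold (median 5.05) than the 1111 with more (1089 bp, 545 bp and 5.996). The largest gap of a region grows with its number of summits, and most regions with 3 or more summits were among the 1111. The female list as a whole had 1621 several-summit regions among 10265 (15.8%), with a median spacing of 570.5 bp.

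**Figure D4:**
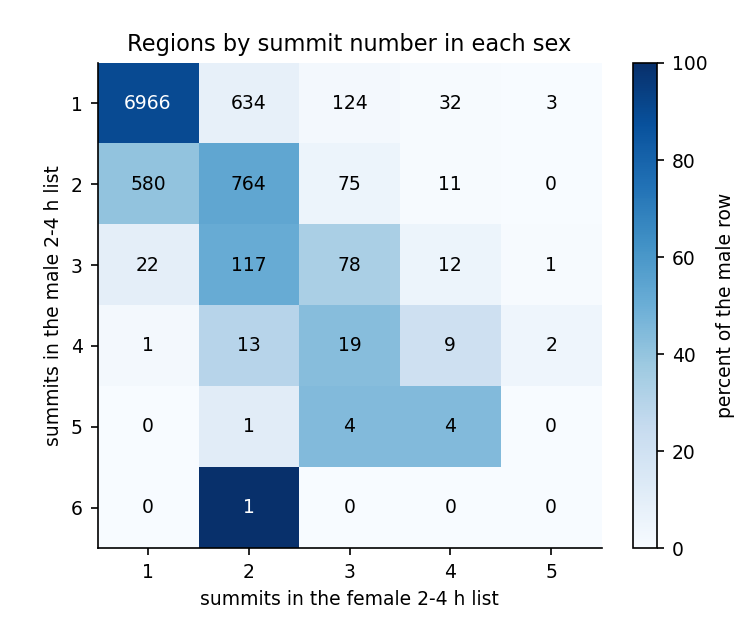
Number of male 2-4 h regions found in females, by the number of male summits (rows) and of female summits (columns), coloured by the percent of each row. Of regions with 1 male summit 6966 had 1 female summit, and of those with 2 male summits 764 had 2 and 580 had 1.

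The strong summit of a region was found at the same place in females far more often than the weak one. Taking summits within 50 bp as the same, 76.7% of strongest summits (interval 74.6 to 78.7%) and 39.4% of weakest summits (interval 37.1 to 41.8%) had a female summit, against 87.0% of the summits of single-summit regions. The median distance to the nearest female summit was 39 bp for all summits of several-summit regions and 17 bp for single ones. The strongest summit was also the strongest in females in 68.3% of several-summit regions and in 83.8% of single-summit ones. Where each sex had exactly 2 summits, the female ones within 1 region (761 regions), the stronger one was the same in 75.2% (interval 71.9 to 78.2%). The spacing of these pairs had medians of 527 bp in males and 525 bp in females, differed by 50 bp or less in 428 regions (56.2%) and correlated across the 761 regions with a Pearson r of 0.62, a description over regions of the same 2 libraries.

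Regions with a different number in the sexes give the range of these cases. At wdb, a regulatory subunit of protein phosphatase 2A, 4 male summits with folds of 1.78, 3.54, 12.2 and 3.65 faced 1 female summit with a fold of 9.14. At drm, a zinc-finger gene of the embryonic gut, 4 male summits with folds of 5.95, 3.62, 12.2 and 2.51 faced 2 female ones with folds of 5.41 and 9.57. In both genes the strongest summit of each sex lay at the same place, within 50 bp. The opposite case was InR, the insulin receptor, where 2 male summits with folds of 6.61 and 4.57 faced female folds of 5.36, 4.09, 2.62 and 3.35. The first 2 female summits at InR lay beside the male pair, and the others lay beyond the end of the 944 bp male region. The Mediator subunit gene skd had 3 male and 5 female summits, and its 2 further female summits also lay outside the male region. gammaSnap1 and sll each had 2 male and 4 female summits.

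Several-summit regions had been called in the earlier CLAMP lists more often than single-summit regions. At least 1 of the 8 lists of NC11 to NC14 overlapped 72.6% of them, and 469 (27.4%) were in none, against 43.8% of single-summit regions. At least 4 lists held 562 (32.8%, interval 30.6 to 35.1%) against 17.8%, and 12 regions were in all 8. In the female lists of NC11, NC12, NC13 and NC14 the shares were 63.8%, 24.3%, 51.1% and 7.64%, against 46.2%, 14.9%, 32.6% and 4.37% of single-summit regions and 46%, 15.4%, 33.3% and 4.6% of all male regions. In the male lists of the same cycles they were 1.05%, 8.34%, 59.3% and 29.8%, against 1.07%, 5.28%, 40.3% and 17.5% of single-summit regions and 0.983%, 5.4%, 40.8% and 18.5% of all. The male NC11 list, with 133 regions, did not separate the sets.

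A wide region meets another list by 1 bp more easily than a narrow one, so the same was asked of single positions. The strongest summit itself lay inside a region of the female NC11 list in 60.6% of several-summit regions (interval 58.3 to 62.9%) and 45.7% of single-summit regions (interval 44.6 to 46.8%). For the male NC13 list the values were 55.3% and 39.6%, and for the male NC14 list 21.1% and 14.7%. Several-summit regions had higher folds at their strongest summit, and single-summit regions weighted to the same 4 sets by fold gave 51.9%, 45.3% and 17.2% for these 3 lists. By overlap with any earlier list the excess was 16.4 percentage points, and 10.6 with fold weighted in this way. Asking instead that the earlier list cover at least 50% of the region turned the difference around in 7 of the 8 lists, and in the 1 other (male NC11) it was already negative. The earlier regions were narrow (median widths from 273 to 344 bp), and 1 of them covers less of a wide region.

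The stronger summit was present early far more often than the weaker one. In the 1430 regions with 2 summits, a summit of the female NC11 list stood within 50 bp of the stronger one in 48.0% and of the weaker one in 24.2%. It stood at both in 276, at the stronger alone in 410 and at the weaker alone in 70. In the male NC13 list the stronger alone was met in 388 regions and the weaker alone in 69, and in the male NC14 list 169 and 35. Of the 1094 regions found in female NC11, 348 (31.8%, interval 29.1 to 34.7%) lay under an earlier region that itself had several summits, against 4.88% of the single-summit regions found there, and 327 met at least 2 separate earlier regions. In male NC13 306 of 1017 (30.1%) lay under such a region, against 6.81% of single-summit regions, and 327 met at least 2 regions. In male NC14, the largest of the 8 lists, 54 of 510 (10.6%, interval 8.05 to 13.6%) did, against 6.94%. A wide region meets more of the earlier regions, and the part of width in these shares was not tested.

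H4K16ac regions covered several-summit regions more often than single-summit ones at every stage and in both sexes. In females the shares were 56.1%, 60.4%, 63.4%, 59.2% and 80.3% from NC11 to 2-4 h, against 34.8%, 35.4%, 38.7%, 36.5% and 54.8% of single-summit regions and 36.6%, 37.7%, 41%, 38.6% and 57.2% of all. In males they were 17.4%, 58.3%, 40.4%, 66.0% and 78.4%, against 7.45%, 33.3%, 23.9%, 42.7% and 54.1% of single-summit regions and 8.64%, 35.7%, 25.5%, 44.8% and 56.5% of all. The gap kept its direction in all 10 lists when only the strongest summit was asked about, but it narrowed. In males it went from 9.94 to 3.18 percentage points at NC11 and from 16.5 to 5.46 at NC13, and in females from 21.2 to 12.7 at NC11 and from 22.6 to 13.1 at NC14. At 2-4 h it lay in H4K16ac in 61.5% of several-summit regions (interval 59.1 to 63.8%) and 42.5% of single-summit regions in males, and in 64.6% and 42.6% in females. On the X, the male 2-4 h values were 55.7% (interval 50.2 to 61.1%) and 34.0%, so the X did not stand above the autosome arms, where they were 62.9% and 44.6%.

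H4K16ac was found most often between the summits. In regions with 2 summits the male 2-4 h mark covered the midpoint in 69.0% (interval 66.5 to 71.3%), the stronger summit in 60.5% (interval 57.9 to 63.0%) and the weaker in 62.1% (interval 59.5 to 64.6%). The female values were 71.7%, 63.4% and 66.4%. The midpoint and both summits belong to the same regions, and the separate intervals do not take this pairing into account. At NC14 the order was the same in males (50.2%, 40.6% and 42.8%) and females (43.1%, 34.1% and 35.7%). Around the centre of a region the male 2-4 h share fell from 70.3% to 35.1% at 1000 bp and 17.0% at 2000 bp to the side of rising coordinate, against 44.6%, 22.8% and 14.7% around single-summit regions.

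**Figure D5:**
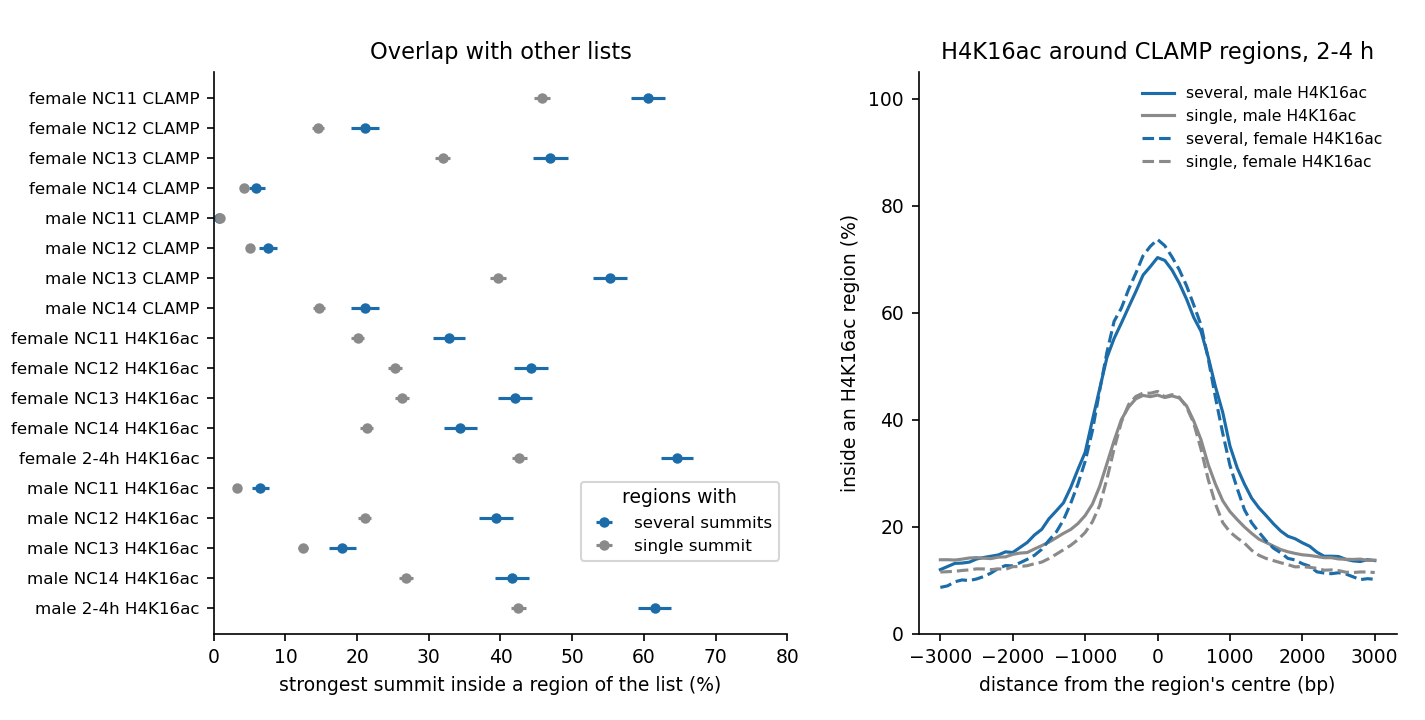
Left, percent of several-summit (blue) and single-summit (grey) regions whose strongest summit lies in a region of each CLAMP and H4K16ac list, with exact 95% intervals. Right, percent of regions inside a 2-4 h H4K16ac region by distance from the region's centre in bp, for male (solid) and female (dashed) H4K16ac, with the male several-summit curve peaking at 70.3% and the single-summit one at 44.6% at the centre.

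For MSL3 the difference between the sets was small, and in several lists its direction turned with the way of counting. The male MSL3 lists of NC11 and NC12 overlapped 6 and 5 of the 1714 regions, where 0.0973% and 0.175% of all male regions were overlapped. The NC13 list, the largest of all 25 with 15149 regions, overlapped 424 (24.7%), against 19.6% of single-summit regions and 20.6% of all. At NC14 the shares were 4.38%, 3.66% and 3.83%, and at 2-4 h they were 4.03%, 2.71% and 2.95%. The strongest summit lay in NC13 MSL3 in 9.39% of several-summit regions (interval 8.05 to 10.9%) and 11.2% of single-summit regions, in NC14 MSL3 in 1.93% and 2.73%, and in 2-4 h MSL3 in 2.63% and 2.44%. Several-summit regions were thus above single-summit ones by overlap in these 3 lists, and below them at the strongest summit at NC13 and NC14. On the X, NC14 MSL3 overlapped 65 of 334 several-summit regions (19.5%) and 253 of 1514 single-summit regions (16.7%). At the strongest summit the order was the reverse, with 8.08% (interval 5.39 to 11.5%) against 12.9% (interval 11.2 to 14.7%). At 2-4 h the strongest summit lay in MSL3 in 4.49% on the X (interval 2.54 to 7.30%) and 6.47% of single-summit regions.

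Several-summit regions lay at genes slightly more often than single-summit regions. Gene models are those of the RefSeq table for Release 6, which names the genes but was read here without strand or exons. A gene overlapped 91.4% of the regions (interval 90.0 to 92.7%) against 83.7% of single-summit regions, and 94.3% against 89.0% lay within 1 kb of one. An end of a protein-coding gene fell inside 62.8% against 40.7%, and 2 or more ends fell inside 32.2% against 14.5%. Per kb of region, however, the several-summit regions held 0.917 gene ends and the single-summit regions 1.15. The strongest summit was within 500 bp of a gene end in 53.9% (interval 51.5 to 56.3%) against 45.3%, and the weakest in 48.8%. In 730 regions (42.6%) at least 1 gene end stood between the outermost summits, at 0.876 ends per kb there and 0.969 per kb outside them.

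A several-summit region lay within 1 kb of 2467 of 13842 protein-coding genes, 17.8%. This is the background for the gene lists below, except for their noncoding roX and tRNA genes. Genes with a several-summit region were long, with a median of 4728 bp against 2561.5 bp for genes with other CLAMP regions alone. A long gene meets more regions. Over the body of px lay 5 of them, and over Antp, CG46458 (which overlaps Antp), Alh, CG1677, E2f1, Svil and bun lay 4 each.

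In a list of 9 genes for pioneer, GA-binding and related factors, 7 had a several-summit region (interval 40.0 to 97.2%). They were Clamp itself, Trl (GAGA factor), psq, lolal, Adf1, grh and zld, the main activator of the early zygotic genome. The genes of this list had a median length of 13121 bp, and the part of length in the count was not tested. At Clamp (2L, 22168385 to 22169550) the folds were 12.2 and 9.01 and the highest female fold was 9.73, and at zld they were 11.9 and 4.01 with 9.01 in females. Of 15 regulators, mostly of BTB and zinc-finger families, 12 had a several-summit region, in genes with a median length of 60654 bp. These 12 include tai, Eip74EF and Eip93F, which are of other families. Of 11 insulator protein genes 8 had one, among them BEAF-32, Cp190, Chro and su(Hw). Chro had 3 summits in each sex with a highest male fold of 4.88.

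Of the 8 genes for MSL proteins, roX RNAs and CLAMP, 3 had a several-summit region, both roX genes and Clamp, which are named here after their values were seen. The roX1 region held 2 summits in each sex, with male folds of 7.05 and 5.30 and a highest female fold of 6.91. The roX2 region had male folds of 12.0 and 5.78 and 1 female summit with a fold of 10.4. Both were found early, in 6 and 7 of the 8 earlier lists.

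Shares in the lists of developmental genes had wide intervals, and the lists differ in gene length. None of the 9 pair-rule genes had a several-summit region (which allows a share of up to 33.6%), although all 9 had a CLAMP region within 1 kb and their median length was 2533 bp. Of 15 gap genes 3 had one (bcd, kni and oc), and of 14 segment polarity genes 3 (arm, hh and nkd). The region at bcd lay within 1 kb of the gene without touching it, and it overlapped zen, for which it was counted again. Single regions were likewise counted for both Ibf1 and Ibf2, for pb and zen2, and for Hsf and Pcl. At kni, a gap gene repressor, the 3 male folds were 2.80, 2.47 and 4.02 and the female folds 1.74 and 3.59. At hh, the Hedgehog ligand, 3 male summits with folds of 3.34, 2.11 and 2.096 lay beside 3 female ones with folds of 2.76, 2.09 and 1.95. Of 8 Hox genes, with a median length of 30563 bp, 5 had one (Abd-B, Antp, Ubx, lab and pb). Of 22 dorsoventral genes 6 had one, of 18 Notch pathway and E(spl) genes 8 and of 17 Polycomb group genes 6. The intervals of the pair-rule, gap, segment polarity, dorsoventral and Polycomb lists all included the background of 17.8%. So did those of the list of MSL, roX and CLAMP genes above (8.52 to 75.5%) and of 2 lists below. These are the first zygotic wave (11.8 to 61.6%) and heat shock genes (6.41 to 47.6%). In the Notch list, the receptor gene N had male folds of 5.55, 5.93 and 3.13 and female folds of 6.66 and 2.60. At the acetyltransferase gene nej 1 region had 3 male and 4 female summits, with highest folds of 7.16 and 6.33. The 2 female summits outside it lay within a second several-summit region at nej (X, 9684250 to 9685300). That region had 2 male summits, and the same 4 female summits were counted for it. The Polycomb gene Su(z)12 had 3 male summits and 1 female summit.

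Of 26 genes of receptor tyrosine kinase signalling 14 had a several-summit region (interval 33.4 to 73.4%), among them Egfr, spi, InR, pnt, aos and cic. Their median length was 16879 bp, and the part of length in the count was not tested. Besides spi, cic, a repressor that the pathway relieves, had 3 male summits with folds of 6.52, 7.65 and 5.54 and female folds of 7.03 and 5.23.

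Of 15 genes of the first zygotic wave 5 had one (slam, Z600, Sxl, sisA and spri). At Sxl, the X-linked switch of sex determination, 3 male summits with folds of 4.37, 1.98 and 3.12 lay beside the first 3 of 4 female summits with folds of 3.04, 1.86, 3.13 and 4.04, and the strongest female summit lay beyond the male region. At Z600, a mitotic inhibitor of cycle 14, the male folds were 1.70, 4.09 and 3.40 and the female folds 3.08, 1.88 and 3.66. Heat shock genes had 4 of 18 (Hsc70-3, Hsf, Hsp83 and Hsp70Ba), the last of which belongs to a family of near-identical copies whose reads could be split between them. Cytoplasmic ribosomal protein genes had 28 of 92 (30.4%, interval 21.3 to 40.9%). The tRNA genes, with a median length of 73 bp, had 38 of 295 (12.9%, interval 9.28 to 17.2%), and no background of noncoding genes is given for them. Of these 38, 6 stood at 3 regions with 3 summits, and tRNA genes too are repeated in near-identical copies.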

How the data were processed

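The files are peak lists that the authors deposited, 1 per sample, made from ChIP-seq of pooled embryos. The submitters' processing notes name MACS2 2.1.1, SAMtools 1.9, Picard and Bowtie2, with the build dm6, and give them no role or order. The control library, any pooling of replicates and the option that reports several summits per region are not given in the sources used here. Per the file's values, the deposited columns of the CLAMP lists hold a score (10 times −log10 q rounded down in 99.99% of the rows of the male list), a fold enrichment ratio over background, −log10 p and −log10 q, and the summit's offset from the start in bp. The H4K16ac and MSL3 lists have 1 row per region. The input, IgG and further replicate libraries were not analysed here. The labels hold 66 samples, of which 25 have a list.

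Rows were grouped into regions by chromosome, start and end, with Python 3.11.15, pandas 2.3.3, numpy 2.4.6 and scipy 1.17.1; the interval functions were tested on simulated intervals. Presence in another list meant an overlap of at least 1 bp, and summits within 50 bp counted as the same. Shares carry exact 95% intervals. Genes came from the RefSeq table of Release 6, the assembly behind dm6, and were counted with 1 kb flanks. A region was named by the gene it overlaps or the nearest within 5 kb. No genome sequence was used here, so a planned count of GA motifs was not run. The regions named are the 10 with most summits, the 5 of highest fold on the X, on chromosome 2 and on chromosome 3, the 5 with the longest spacing, the 5 with the most surplus female summits and the 5 with the most surplus male summits (12 regions tied at a female surplus of 2 and 39 at a male surplus of 2, and ties went to the higher male fold), and those of at least 3 summits at genes of 16 lists; other genes are named after their values were seen. 1 region that this rule names is not reported here. The members and lists were chosen with earlier results of these data known. No comparison has a replicate, so no test was made.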

Additional observations from a re-analysis of the deposited data

Results flagged for a closer look

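Contrasts were looked at again where males and females moved in opposite directions, with 1 list for each sex, so the differences were not tested. At NC11 the CLAMP list overlapped several-summit regions on the X less often than those on the autosome arms in males (0.299% and 1.23%, a difference of -0.932 percentage points) and more often in females (75.7% and 60.9%, a difference of 14.8). The difference between several-summit and single-summit regions was -0.0196 percentage points in the male NC11 list and 17.6 in the female one. The male NC11 CLAMP list held 133 regions and the female one 5462, and the part of list size in these differences was not tested. H4K16ac at NC11 overlapped 9.88% of several-summit regions on the X and 19.2% on the autosome arms in males (a difference of -9.32), against 57.2% and 55.8% in females (1.39). At NC12 the differences were -6.94 in males and 0.488 in females.

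Regions outside the arms were left out of the comparisons. On chromosome 4, 24 of 166 regions had several summits and were found in females (14.5%, interval 9.49 to 20.7%), with a median highest fold of 5.44. On the mitochondrial genome 7 of 8 did, with a median highest fold of 3.10.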

How the results depend on the processing

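No result comes from a test, so no paired test was made, and each group has 1 list, so no replicate could be left out. The number of regions stayed from 1508 to 1738 under 6 alternatives, and median spacing and share on the X also held. The count of list genes with a region, summed over the lists, was 150, and it was 125 with no flank and 216 with flanks of 5 kb. Genes in more than 1 list, such as Clamp, psq and mod(mdg4), were counted in each. The median fold was 4.43 as the mean over summits and 3.02 at the lowest summit, both below the 4.73 of single-summit regions. Within 25 and 100 bp, male summits had a female partner in 38.6% and 71.9%, and the strongest summit was shared in 49.1% and 80.5%. Several female summits inside the male region were in 61.3%. With no flank and with flanks of 5 kb, 91.4% and 97.2% of regions met a gene. Asking for 50% coverage or for the strongest summit alone (the latter, like counting female summits inside the male region, chosen after seeing the data) changed the overlaps. Any earlier CLAMP list met 43.6% and 67.9%, male 2-4 h H4K16ac 68.2% and 61.5%, and NC14 MSL3 on the X 6.29% and 8.08%. The excess over single-summit regions became -3.41 and 13.6 points for CLAMP (10.6 with fold matched), 19.0 for H4K16ac at the summit, and -6.39 and -4.80 for X MSL3. At 50% coverage it turned to -1.91, -4.64, -0.0738 and -1.10 for female CLAMP of NC11 to NC14, -1.59, -1.07 and -5.71 for male CLAMP of NC12 to NC14, and -3.75, -1.14 and -0.334 for MSL3 of NC13, NC14 and 2-4 h; at the summit it was -1.83 and -0.807 for MSL3 of NC13 and NC14. The cause was not tested. The 9 H4K16ac lists beside male 2-4 h kept a positive excess under each alternative. Unknown depth and unreplicated lists limit every value.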
